A study of Mus musculus with 7 samples.

Results

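Neuregulins and the ErbB receptors were followed across 7 single-cell libraries of mouse cells, through 4 genes chosen by name: the receptor genes Erbb2, Erbb3 and Egfr and the ligand gene Nrg1. These are 4 of the 17784 genes in the files, and each had a row in all 7 libraries. The libraries came from a study of direct conversion, in which cells of one type are turned into another by forced transcription factors, here towards oligodendrocyte progenitor cells. All cells were from C57BL/6 mice, and each population was 1 library.

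One library, pOPC, was of untreated primary progenitors from brain, the dividing glial precursors that later make myelin. The untransduced donors were fibroblasts of the embryo (MEF) and pericytes of the cerebrum (PC), which wrap small vessels. The converted cultures were MEF and PC that had received viruses for Olig2 with Sox10, named MEF-2F and PC-2F, or for these plus Nkx6.2, named MEF-3F and PC-3F. Per the labels' protocols, pOPC and the converted cells grew in OPC medium and each donor grew in a medium of its own, so the medium and the virus cannot be told apart in any comparison of a converted culture with its donor. The labels give no age, dose, time after transduction or number of animals.

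ErbB receptors are cell-surface tyrosine kinases that work in pairs. ErbB3 binds neuregulins but has little kinase activity of its own and signals through a partner, most often ErbB2, which binds no ligand; EGFR binds EGF-like ligands such as TGF-alpha, and ErbB4 binds neuregulins with an active kinase. Neuregulin 1 made by axons acts through ErbB2 and ErbB3 on Schwann cells, the myelinating glia of peripheral nerve and their neural crest precursors, and neuregulins also act on oligodendrocyte progenitors.

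The receptor genes form one family, and their kinase domains are alike enough to be set side by side. The stretch printed here is the coding sequence of the catalytic loop of the kinase up to the start of the activation loop, 69 bases that lie within coding exon 21 of each gene; it is shown to let the receptors be told apart by letter. Capitals mark the 36 positions that the 4 receptor genes do not all share, and each line reads 5′ to 3′ along the coding strand, from GENCODE transcripts of GRCm38, which is the mm10 assembly.
Erbb3: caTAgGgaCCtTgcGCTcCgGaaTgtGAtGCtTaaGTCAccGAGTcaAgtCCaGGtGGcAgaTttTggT
Erbb2: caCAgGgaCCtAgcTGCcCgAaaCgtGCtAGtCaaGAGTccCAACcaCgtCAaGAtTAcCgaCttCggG
Egfr: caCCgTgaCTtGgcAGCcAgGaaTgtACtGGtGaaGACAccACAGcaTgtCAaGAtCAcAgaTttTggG
Erbb4: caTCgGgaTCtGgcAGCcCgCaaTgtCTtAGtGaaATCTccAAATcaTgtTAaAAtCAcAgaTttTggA
Erbb3 stood alone, against 3 receptor genes that shared a letter, at 7 positions, compared with 5 for Erbb2, 4 for Egfr and 4 for Erbb4. Erbb3 was identical to Erbb2 at 62.3% of the bases and to Egfr and Erbb4 at 65.2% each, while Egfr and Erbb4 were identical at 75.4%.

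On that build Erbb3 lies on the minus strand at chr10:128567523-128589652, and its stretch at chr10:128572488-128572556. Erbb2 lies on the plus strand at chr11:98412470-98437716, with its stretch at chr11:98434247-98434315. Egfr lies on the plus strand at chr11:16752203-16918158, with its stretch at chr11:16904338-16904406. Nrg1 spans chr8:31814551-32884029 on the minus strand. Erbb4, which is not among the 4 genes but completes the receptor family, spans chr1:68032186-69108059 on the minus strand, with its stretch at chr1:68080694-68080762. The last 9 bases of Erbb2 overlap the end of Mien1 on the other strand, and whether the counting used strand is not given in the sources used here.

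Levels are CPM, the UMIs of a gene per 1000000 UMIs of its library, UMIs being unique molecular identifiers that count 3′ ends of transcripts. The deposited values are codes from which the UMI counts were inferred, and each level depends on that reading. Levels were summed over 1124 cells: 290 of PC, 179 of PC-2F, 161 of MEF-3F, 147 of PC-3F, 134 of pOPC, 131 of MEF and 82 of MEF-2F. MEF-2F was the shallowest library at 230130 UMIs and PC the deepest at 1292557, and the median depth of a cell lay between 1866 UMIs (MEF-3F) and 6259 (PC-2F). No cell barcode was shared between libraries. Intervals are 95%, exact, and cover counting error only; with 1 library per population there is no replicate check and no test. A gene was called higher or lower where its levels were at least 2-fold apart with an interval of the ratio that excludes 1, provided it was measured, with at least 10 UMIs and 20 CPM in 1 of both libraries. A fold given as at least, against a library or cluster with 0 UMIs, is the exact 95% lower limit of the ratio. A ratio given as at most is the upper limit. Folds of Tgfa against such a library were instead computed with 3 UMIs there and are not limits.

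The labels were compared with marker genes. In pOPC 11 of 13 progenitor markers were detected at a summed 8347 CPM, and 7 of 8 neuron markers at 594 CPM. In MEF all 10 fibroblast markers were detected at a summed 24626 CPM, and all 10 mural markers at 14031 CPM. In PC 7 of 10 mural markers were detected at a summed 474 CPM, with Rgs5, Kcnj8 and Abcc9 at 0, beside 601 CPM of epithelial and mesothelial markers, so the name pericyte rests on the label. Sox10, one of the delivered factors, was at 591 CPM in pOPC, 251 in PC-2F, 244 in MEF-3F, 216 in PC-3F, 130.4 in MEF-2F, 12.7 in MEF and 0 in PC. Viral Sox10 and that of the cell's own gene were not told apart. Nkx6-2 had 1 or 2 UMIs in each of the 4 converted libraries, so its tags did not separate the libraries labelled 2F from those labelled 3F.

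Erbb3, the neuregulin-binding receptor gene, was the member that differed most between the converted cultures and the others. Its level was 748 CPM in PC-3F (interval 682 to 818), 478 in PC-2F (439 to 518), 395 in MEF-2F (318 to 485) and 308 in MEF-3F (259 to 363). It was 8.86 CPM in MEF from 7 UMIs and 3.16 CPM in pOPC from 2 UMIs, and PC had 0 UMIs, which allows up to 2.85 CPM. All 4 converted libraries were thus far above all 3 others, with no overlap of intervals. From the highest level down the order was PC-3F, PC-2F, MEF-2F, MEF-3F, MEF, pOPC and PC. The neighbours PC-2F and MEF-2F did not differ beyond counting error (1.21-fold, 0.967 to 1.52), nor did MEF-2F and MEF-3F (1.29-fold, 0.977 to 1.68).

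Against their donors, Erbb3 was 44.6-fold higher in MEF-2F (20.8 to 114) and 34.7-fold higher in MEF-3F (16.4 to 87.9). PC-3F was at least 261-fold higher than PC, and PC-2F at least 167-fold. Both MEF-derived comparisons share the MEF library, and both PC-derived ones share PC.

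**Figure D1:**
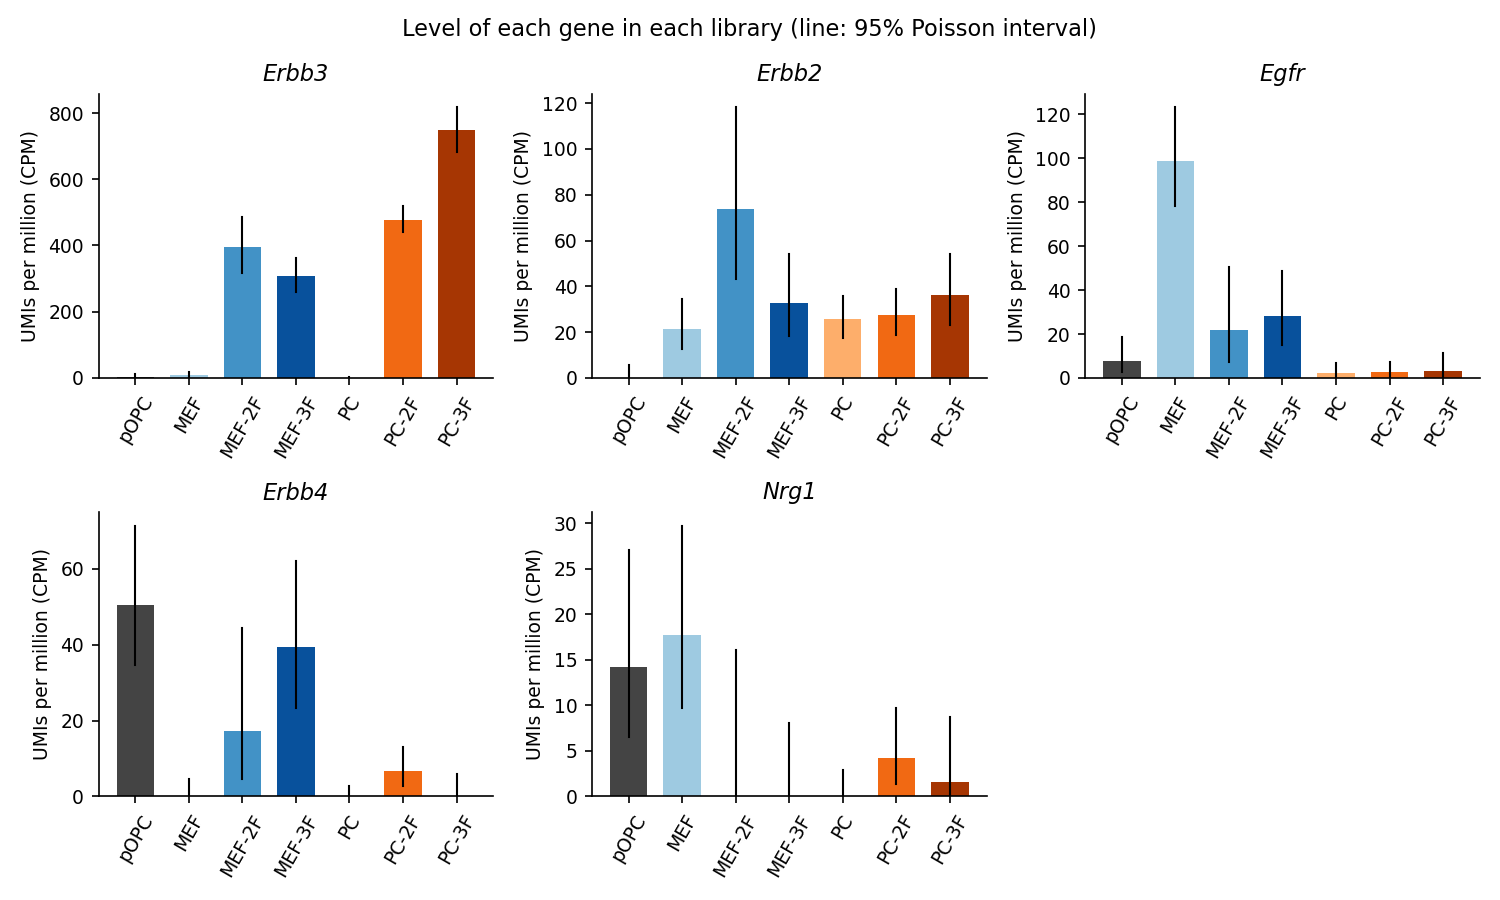
Level in CPM (y axis, linear from 0) of the receptor genes Erbb3, Erbb2, Egfr and Erbb4 and of the ligand gene Nrg1 in each of the 7 libraries (x axis); bars are levels and lines 95% Poisson intervals. Erbb3 stands at 308 to 748 CPM in the 4 converted libraries and at 8.86 or less in the others. Egfr is highest in MEF and Erbb4 in pOPC, where the Erbb4 interval overlaps those of MEF-3F and MEF-2F.

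The primary progenitors were far below the converted cultures. Erbb3 was 125-fold above pOPC in MEF-2F (33.7 to 1049), 97.3-fold in MEF-3F (26.5 to 811), 151-fold in PC-2F (41.6 to 1251) and 237-fold in PC-3F (65.1 to 1959), wide intervals that come from the 2 UMIs of pOPC. These 4 comparisons share pOPC. The low Erbb3 of pOPC went with high Sox10: 2 of the 107 pOPC cells that had a Sox10 UMI had an Erbb3 UMI, at a median of 4648 UMIs per cell.

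Most cells of the PC-derived cultures had Erbb3. A UMI of it was found in 137 of 179 PC-2F cells (76.5%, 69.6 to 82.5), 120 of 147 PC-3F cells (81.6%, 74.4 to 87.5), 40 of 82 MEF-2F cells (48.8%, 37.6 to 60.1) and 61 of 161 MEF-3F cells (37.9%, 30.4 to 45.9). It was found in 0 of 290 PC cells at a median of 3775 UMIs, which allows up to 1.26% of cells with a UMI and does not limit the share that expresses the gene, in 2 of 134 pOPC cells and in 3 of 131 MEF cells. Because cells differed in depth, each was also thinned to 1000 UMIs, leaving out shallower cells (39 in MEF-3F, 23 in PC and at most 18 elsewhere). The share was then 52.1% in PC-3F, 34.8% in PC-2F, 33.3% in MEF-2F and 26.2% in MEF-3F, against 0% in each of pOPC, MEF and PC. Up to 16 UMIs of Erbb3 were counted in 1 cell of PC-2F, and no cell held more than 2.79% of that library's 573 Erbb3 UMIs.

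**Figure D2:**
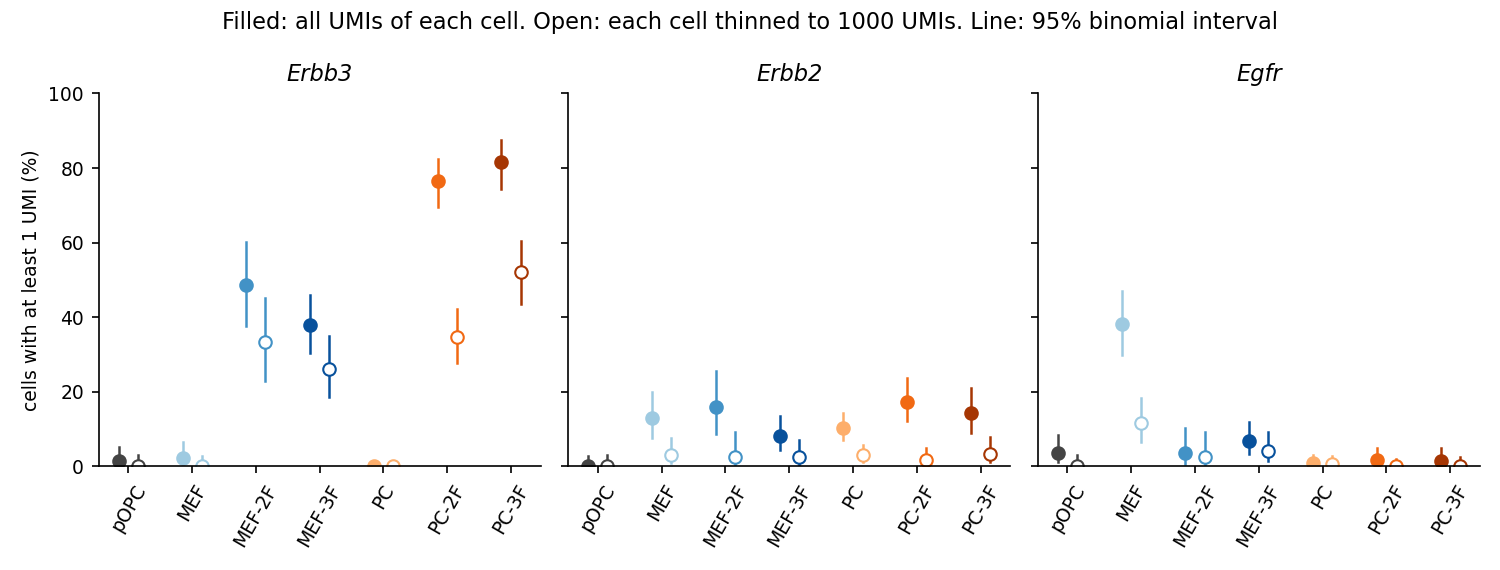
Share of cells with at least 1 UMI (y axis, percent) of Erbb3, Erbb2 and Egfr in each library (x axis), with all UMIs (filled points) and after thinning to 1000 UMIs per cell (open points); lines are 95% binomial intervals. Erbb3 is at 26.2% to 52.1% in the converted libraries after thinning and at 0% in the other 3, and the thinned shares of Erbb2 are at most 3.42%.

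A joint clustering of all cells, made without the 4 genes, split each converted culture. Erbb4 and Sox10 were not left out and may have helped to form the clusters. Among MEF-derived cells, cluster 8 (42 MEF-2F and 17 MEF-3F cells) had Foxd3, Ngfr and Dhh among its leading genes and is called Schwann-like, and cluster 1 (40 MEF-2F and 144 MEF-3F cells) was led by cartilage matrix genes such as Col2a1, Col11a2 and Acan and is left unnamed. Among PC-derived cells, cluster 3 held 148 PC-2F and 13 PC-3F cells, cluster 7 held 115 PC-3F cells, and cluster 9 held 31 PC-2F and 18 PC-3F cells with Dcn, Mmp3 and Ccl2 among its leading genes.

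In MEF-2F most Erbb3 lay in the Schwann-like cells. There it was at 707 CPM (565 to 874) in 34 of 42 cells, against 54.6 CPM (20.03 to 119) in 6 of 40 cells of cluster 1, which is 12.9-fold (5.71 to 36.3). The Schwann-like cells were 51.2% of the MEF-2F cells and held 93.4% of its Erbb3 UMIs (86.2 to 97.5).

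In MEF-3F most Erbb3 lay in the other cluster. Its Schwann-like cells were again high, at 604 CPM (430 to 826) in 10 of 17 cells, and differed from those of MEF-2F by less than counting error (0.855-fold, 0.569 to 1.26). They were 10.6% of the MEF-3F cells, and 72.3% of its Erbb3 UMIs (64.2 to 79.5) lay in cluster 1. Cluster 1 of MEF-3F was at 259 CPM (211 to 314) in 51 of 144 cells, 4.74-fold above cluster 1 of MEF-2F (2.11 to 13.2). Sox10 moved with it: cluster 1 had 264 CPM of Sox10 in MEF-3F and 0 UMIs in MEF-2F, at least 7.73-fold apart. Within MEF-3F the order was the opposite: the Schwann-like cells had 2.33-fold more Erbb3 than cluster 1 (1.57 to 3.41) and 2.13-fold less Sox10 (1.04 to 5.06). The part of Sox10 in these differences was not tested.

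In the PC-derived cultures the cells with little Erbb3 were those of cluster 9. Erbb3 was at 572 CPM (526 to 621) in cluster 3 of PC-2F, in 132 of 148 cells, against 37.9 CPM (16.3 to 74.6) in cluster 9, in 5 of 31 cells. In PC-3F it was at 901 CPM (817 to 992) in cluster 7, in 105 of 115 cells, 499 CPM (358 to 677) in cluster 3 and 181 CPM (103 to 294) in cluster 9, in 4 of 18 cells. Cluster 9 also had little Sox10, 9.47 CPM in PC-2F and 11.3 CPM in PC-3F, against 303 and 254 CPM in the main cluster of each library. In cluster 3 the level did not differ beyond counting error between the 13 PC-3F and the 148 PC-2F cells (0.873-fold, 0.619 to 1.199). PC-3F was above PC-2F by 4.78-fold in cluster 9 (1.93 to 12.9, from 16 and 8 UMIs). These UMIs lay in 4 and 5 cells, and the interval does not cover spread between cells. The shares of cells, 22.2% (6.41 to 47.6) and 16.1% (5.45 to 33.7), overlapped. Cluster 7 of PC-3F was 1.58-fold above cluster 3 of PC-2F (1.39 to 1.79).

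**Figure D3:**
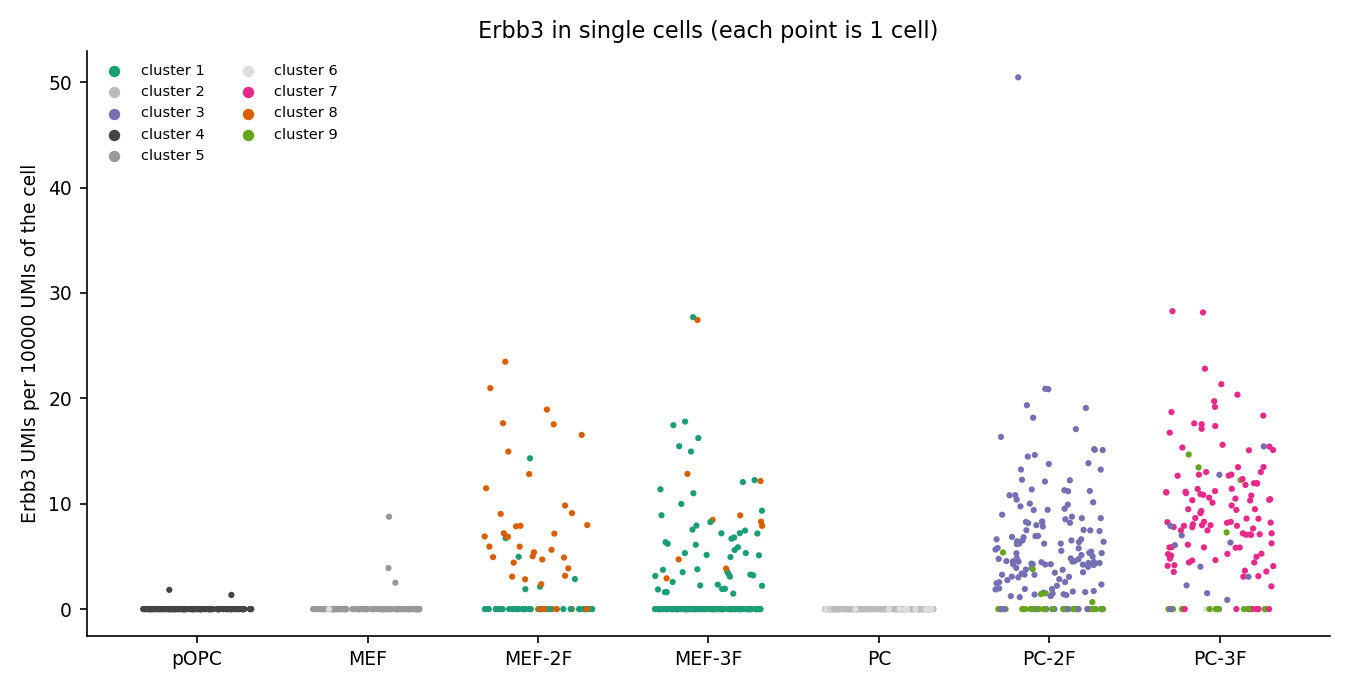
Erbb3 UMIs per 10000 UMIs of a cell (y axis, linear) in each cell (1 point) of each library (x axis, with random sideways spread), coloured by cluster. The median was 7.88 in PC-3F, 4.31 in PC-2F and 0 in MEF-2F and MEF-3F; in MEF-2F the points above 0 are mostly of cluster 8, in MEF-3F mostly of cluster 1, and cluster 9 sits mostly at 0.

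**Figure D4:**
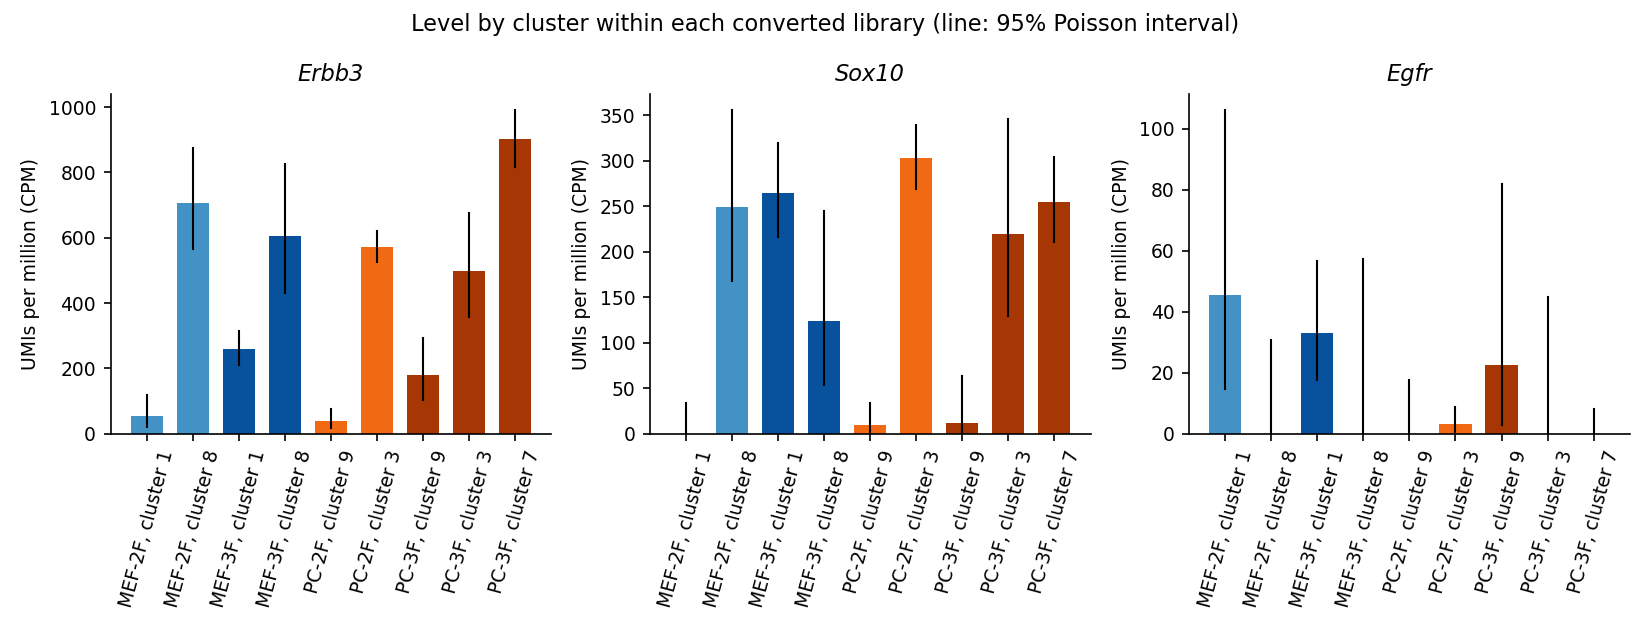
Level in CPM (y axis, linear from 0, a scale for each gene) of Erbb3, Sox10 and Egfr in the clusters of each converted library (x axis); lines are 95% Poisson intervals. Erbb3 is lowest in cluster 1 of MEF-2F and cluster 9 of PC-2F, which have Sox10 at 0 and 9.47 CPM, and Egfr had 0 UMIs in cluster 8 of both MEF-derived libraries.

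Within a library, cells with and without a Sox10 UMI were compared for Erbb3. In MEF-2F the level was 865 CPM (629 to 1161) in the 14 cells with Sox10, all of which had Erbb3, and 262 CPM (193 to 349) in the other 68 cells. In PC-2F it was 555 against 360.0 CPM, in 94 of 100 and 43 of 79 cells. In PC-3F it was 935 against 580.4 CPM, in 59 of 65 and 61 of 82 cells. In these 3 libraries the intervals did not overlap, and Erbb3 was higher where Sox10 was detected. MEF-3F did not show this, with 302 CPM (233 to 385) with Sox10 and 312 CPM (246 to 391) without. The split follows the clusters in part: all 14 MEF-2F cells with Sox10 were Schwann-like, and 98 of 100 in PC-2F lay in cluster 3. Within the main Erbb3-bearing cluster of each of these 3 libraries the intervals overlapped. The level was 865 CPM with Sox10 and 591 CPM (424 to 802) without in the Schwann-like cells of MEF-2F, 572 CPM (517 to 630.5) and 572 CPM (488 to 667) in cluster 3 of PC-2F, and 941 CPM (830.2 to 1062) and 843 CPM (716 to 985) in cluster 7 of PC-3F. The exception was cluster 3 of PC-3F, 13 cells, where the 3 with Sox10 were at 1186 CPM (714 to 1852) and the others at 333 CPM (208 to 504). Cells with Sox10 were deeper in all 4 libraries, most of all in MEF-3F at a median of 3106 against 1458 UMIs, so the shares of cells are not read here. After thinning to 1000 UMIs Erbb3 was in 5 of 7 cells with Sox10 and 20 of 68 without in MEF-2F, 18 of 37 and 44 of 141 in PC-2F, 17 of 23 and 59 of 123 in PC-3F, and 1 of 16 and 31 of 106 in MEF-3F. A cell without a Sox10 UMI can still hold Sox10 at these depths. The split does not tell viral Sox10 from that of the cell's own gene, and how well the tags capture viral Sox10 was not tested.

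In the untransduced fibroblasts, too, Erbb3 lay in cells with Sox10. All 7 Erbb3 UMIs of MEF came from 3 of its 131 cells, and all 3 were among the 5 MEF cells with a Sox10 UMI, while 0 of the other 126 cells had Erbb3. These 3 cells were singled out after their values were seen. Their summed level of 12 Schwann and neural crest markers, Sox10 and Erbb3 left out, was 2215 CPM (1603 to 2984) against 413 CPM (369 to 461) in the other MEF cells, and their fibroblast markers were at 7161 against 25066 CPM. None of the 3 had a UMI of Egfr or Erbb2. Cdh19, one of the markers, was at 0 in MEF, and 3 cells give no firm share: 2.29% of cells, with an interval of 0.475 to 6.55%.

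Erbb2, the partner receptor, was present at a low level in every culture except pOPC. It was at 73.9 CPM in MEF-2F (43.0 to 118), 32.7 in MEF-3F (18.3 to 54.0), 36.2 in PC-3F (22.95 to 54.3), 27.5 in PC-2F (18.9 to 38.6), 25.5 in PC (17.6 to 35.9) and 21.5 in MEF (12.5 to 34.5). In pOPC it had 0 UMIs in 134 cells, which allows up to 5.83 CPM and 2.72% of cells with a UMI, while Mien1, the gene that overlaps its end, was at 80.6 CPM. MEF-2F was called above its donor, by 3.43-fold (1.65 to 7.15), a call lost in its second barcode block alone (log2 ratio 1.69); MEF-3F against MEF (1.52-fold, 0.707 to 3.24), PC-2F against PC (1.08-fold, 0.645 to 1.80) and PC-3F against PC (1.42-fold, 0.795 to 2.49) were not called. With each cell weighted equally MEF-3F was also called above MEF, at a log2 ratio of 1.35. Each of these levels rests on 15 to 33 UMIs.

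MEF-2F had at least 11.3-fold more Erbb2 than pOPC, PC-3F at least 5.72-fold, MEF-3F at least 4.95-fold and PC-2F at least 4.46-fold. The donors were also above pOPC, by at least 3.31-fold in MEF and 4.14-fold in PC. The donors without virus thus already differed from pOPC in this gene.

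The pair Erbb2 and Erbb3 was found in no cell of pOPC, MEF or PC, which says nothing about pairing. Erbb2 was in 0 pOPC cells, Erbb3 was in 0 PC cells, and in MEF the product of both single shares gives 0.39 cells. In the converted libraries the pair was found in the same cell in 11 of 82 MEF-2F cells, 4 of 161 MEF-3F cells, 24 of 179 PC-2F cells and 15 of 147 PC-3F cells. The product of both single shares gives 6.34, 4.93, 23.7 and 17.1 cells. Each product lies within the counting interval of its count, which in MEF-2F is 6.89% to 22.7% of cells, with the product at 7.73%. That interval does not hold the single shares fixed, so it cannot tell whether the pair is more frequent than its product. In MEF-2F Erbb2 was in 11 of 40 cells with Erbb3 and in 2 of 42 without, at median depths of 2952 and 1829 UMIs. Cluster 8 of MEF-2F had Erbb2 at 99.8 CPM (51.6 to 174) and cluster 1 at 45.5 CPM (14.8 to 106), intervals that overlap. After thinning at most 1 cell per library held both, which is too few to read.

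Egfr, the receptor for EGF-like ligands, was highest in the embryonic fibroblasts. It was at 98.7 CPM in MEF (78.1 to 123), in 50 of 131 cells, and at 28.4 CPM in MEF-3F (15.1 to 48.5), 21.7 in MEF-2F (7.05 to 50.7), 7.90 in pOPC, 3.15 in PC-3F, 2.501 in PC-2F and 2.32 in PC. MEF was 42.5-fold above PC (14.0 to 211) and 12.5-fold above pOPC (5.13 to 39.5), and lay clear of all 6 other libraries.

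Both MEF-derived cultures had less Egfr than MEF, by 4.54-fold in MEF-2F (1.87 to 14.4) and 3.48-fold in MEF-3F (1.92 to 6.83). What was left lay in cluster 1: all 5 UMIs of MEF-2F and all 13 of MEF-3F were there, and the Schwann-like cells had 0 in both. So few UMIs do not set the clusters apart in either library. In MEF-3F the interval allows the Schwann-like cells up to 24.7% of its Egfr UMIs, and they were 10.6% of the cells. In MEF-2F it allows them up to 52.2%, and they were 51.2% of the cells. Only 3 MEF-2F cells had Egfr, and none of them had Erbb3. Of the 11 MEF-3F cells with Egfr, 2 had Erbb3. In MEF-3F, Egfr was 3.59-fold above pOPC (1.201 to 12.9) and 9.01-fold above PC-3F (2.04 to 82.2, against 2 UMIs). The first of the barcode blocks that make up the MEF-3F file had 0 Egfr UMIs in 40 cells, and with that block alone the ratio to pOPC turned, to a log2 ratio of -0.65 that was not called.

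Nrg1, the ligand, was scarce everywhere and never reached the 20 CPM at which a gene counted as measured. MEF had 14 UMIs in 11 cells (17.7 CPM, 9.69 to 29.7) and pOPC had 9 UMIs in 9 cells (14.2 CPM, 6.50 to 27.0). PC-2F had 5 UMIs (4.17 CPM), 4 of them in cluster 9, the cells with little Erbb3, and PC-3F had 1. PC, MEF-2F and MEF-3F had 0, which allows up to 2.85, 16.03 and 8.05 CPM. The ratio of MEF-3F to MEF was at most 0.52, and MEF was at least 5.43-fold above PC. A difference between MEF and MEF-2F was not detectable at this depth. The converted cultures with high Erbb3 thus held at most 5 UMIs of its ligand gene each, and Nrg2, Nrg3 and Nrg4 had at most 3 UMIs in any library.

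Erbb4, the remaining family member, had its highest level in pOPC, where Erbb3 was near 0. It was at 50.6 CPM in pOPC (34.6 to 71.4), in 25 of 134 cells, at 39.3 in MEF-3F (23.3 to 62.1), 17.4 in MEF-2F (4.74 to 44.5) and 6.67 in PC-2F (2.88 to 13.1), with 0 UMIs in MEF, PC and PC-3F. The levels of pOPC and MEF-3F did not differ beyond counting error (1.29-fold, 0.701 to 2.44). MEF-3F was at least 7.58-fold above MEF, and the ratio of PC-3F to pOPC was at most 0.122. In pOPC, where only 2 cells had Erbb3, no cell had both Erbb3 and Erbb4. In MEF-3F 9 of its 15 cells with Erbb4 also had Erbb3. Those 15 cells were deeper, at a median of 5048 UMIs against 1715 in the other MEF-3F cells, so the counts are not compared. Erbb4 is also a gene of neurons, and neuron markers in pOPC were at 713 CPM (583 to 863) in cells with Erbb4 and 558 CPM (494 to 629) in cells without, intervals that overlap.

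Counted by receptor of any kind, at least 1 UMI of Egfr, Erbb2, Erbb3 or Erbb4 was found in 87.1% of PC-3F, 81.6% of PC-2F, 59.8% of MEF-2F, 52.2% of MEF-3F, 47.3% of MEF, 23.9% of pOPC (16.9 to 32.01) and 11.4% of PC cells. These shares carry the depth of each library.

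Set against all measured genes, the calls read as follows. In MEF-2F against MEF, 2 of the 3 measured members were called higher and 1 lower, where 33.6% of 7542 genes were called. In MEF-3F against MEF, Erbb3 was called higher and Egfr lower of 3 measured, where 36.3% of genes were called. In PC-2F and PC-3F against PC, Erbb3 was called higher of 2 measured, where 30.5% and 33.8% were called. With so few members no share can be set against these percentages, and the size of the Erbb3 ratio is the measurement.

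Against pOPC both measured members were called higher in MEF-2F (43.4% of genes called), PC-2F (41.0%) and PC-3F (40.7%), and all 3 in MEF-3F (39.4%). MEF had Erbb2 and Egfr called higher than pOPC (51.8%), and PC had Erbb2 called higher (48.3%). MEF-3F against MEF-2F had Erbb2 called lower, by 2.26-fold (1.06 to 4.85; 16.4% called), a call that was lost within either barcode block and with each cell weighted equally. PC-3F against PC-2F had no member called (11.1%), Erbb3 being 1.57-fold higher in PC-3F (1.38 to 1.77). By origin, Erbb3 was 2.43-fold lower in MEF-3F than in PC-3F (2.01 to 2.95) and Egfr higher (28.1%), Erbb2 was 2.69-fold higher in MEF-2F than in PC-2F (1.4027 to 4.96; 27.0%), and Egfr was higher in MEF than in PC (36.4%).

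The rest of the pathway was described from a list of 72 other genes, of which 71 had a row: ligands and the proteases that shed them, adaptors and effectors, inhibitors of the receptors, feedback inhibitors and target genes of ERK, and scaffolds. Against the donor, 19 of 52 measured genes were called higher and 7 lower in MEF-2F (all genes 19.0% and 14.6%), and 22 and 4 of 57 in MEF-3F (23.6% and 12.7%). The counts were 16 and 6 of 55 in PC-2F (17.7% and 12.8%) and 15 and 10 of 55 in PC-3F (18.8% and 15.0%). The median log2 ratio of the list was 0.46, 0.48, 0.34 and 0.17 in that order, against 0.05, 0.27, 0.05 and 0.05 over all measured genes.

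Among ligands of EGFR, Tgfa was at 145 CPM in pOPC, 0 in MEF and PC, 65.5 in MEF-3F, 38.4 in PC-2F, 29.9 in PC-3F and 17.4 in MEF-2F. With a set count in place of the 0 of the donor, Tgfa was 17.2-fold above MEF in MEF-3F. On the same basis it was above PC by 16.5-fold in PC-2F and 12.9-fold in PC-3F. These Tgfa folds depend on the set count and are not lower limits. Hbegf, another such ligand, was at 109 CPM in MEF-2F and 168 in MEF-3F against 172 in MEF, and was called lower in PC-3F (22.0 CPM) than in PC (44.9). Of the shedding proteases, Adam17 was called higher in PC-3F, PC-2F and MEF-2F, and Adam10 in MEF-2F, at 434 against 163 CPM.

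The feedback inhibitors and target genes of ERK, the kinase at the end of the Ras cascade that ErbB receptors and many other receptors switch on, were called higher than in the donor more often than lower. Of 12 measured 10 were called higher in MEF-2F and 1 lower (all genes 19.0% and 14.6%), and of 13 measured 11 in MEF-3F and 0 lower (23.6% and 12.7%). In PC-2F 7 of 14 were called higher and 3 lower (17.7% and 12.8%), and the counts were the same in PC-3F (18.8% and 15.0%). Spry2, a feedback inhibitor of receptor tyrosine kinase signalling, was at 521 CPM in MEF-2F and 484 in MEF-3F against 84.8 in MEF, while PC-derived cells had 317 (PC-2F) and 289.6 (PC-3F) against 122 in PC. Etv5, an ERK-responsive transcription factor, was 4.49-fold and 5.97-fold above MEF, and 4.12-fold and 3.34-fold above PC. Dusp6, the phosphatase that inactivates ERK, was 12.4-fold higher in MEF-2F, 5.73-fold in MEF-3F and 2.52-fold in PC-2F, and 1.70-fold in PC-3F, which was not called. Phlda1 was 9.42-fold, 7.74-fold, 3.37-fold and 3.99-fold higher in the same order. Fosl1, an AP-1 factor, went the other way and was 20.8-fold lower in PC-2F and 24.5-fold lower in PC-3F than in PC (347 CPM). Also called lower than in the donor were Spry1 in MEF-2F, Dusp5 and Etv4 in PC-2F, and Dusp5 and Myc in PC-3F.

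**Figure D5:**
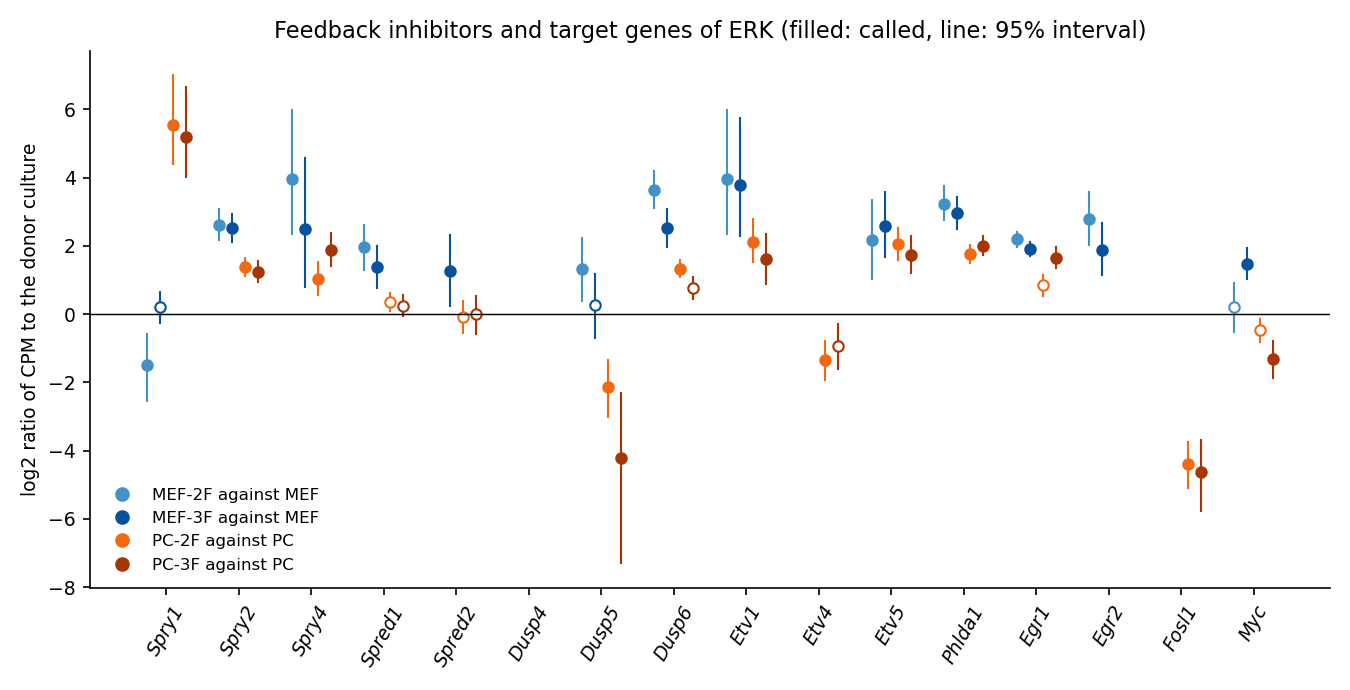
Log2 ratio of the level in each converted library to its donor culture (y axis) for the feedback inhibitors and target genes of ERK (x axis); filled points were called, open points were measured and not called, lines are 95% intervals, and genes that were not measured or had 0 UMIs in either library have no point. Spry2, Spry4, Etv1, Etv5 and Phlda1 lie above 0 with filled points in each comparison, and Dusp5 and Fosl1 lie below 0 in the PC-derived libraries.

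Fos, an immediate early gene that handling of cells also induces, was at 3607 CPM in MEF-2F and 3554 in MEF-3F against 668 in MEF, while PC-derived cells had 168 (PC-2F) and 189 (PC-3F) against 18.6 in PC; its part in the values of the ERK genes, and that of the medium, was not tested.

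Of the adaptors and effectors of the receptors, 6 of 26 measured were called higher and 2 lower in MEF-2F (all genes 19.0% and 14.6%). In MEF-3F it was 6 of 26 and 1 (23.6% and 12.7%). The counts were 4 of 24 and 1 in PC-2F (17.7% and 12.8%), and 4 of 25 and 2 in PC-3F (18.8% and 15.0%). The shares called higher were near those over all genes, and the genes that follow are single examples. Gab1, a docking protein of receptor kinases, was at 187 CPM in MEF-2F and 262 in MEF-3F against 78.5 in MEF, while PC-derived cells had 108 (PC-2F) and 176 (PC-3F) against 8.51 in PC. Fyn, a Src-family kinase with a role in oligodendrocytes, was 2.79-fold, 3.95-fold, 4.09-fold and 4.13-fold above the donor, 2F before 3F and MEF-derived before PC-derived. Hras was lower than in the donor in each, by 3.50-fold, 2.39-fold, 2.38-fold and 2.04-fold. Errfi1, an inhibitor that binds the kinases of EGFR and ErbB2, split by donor: it was 4.12-fold and 3.64-fold higher in MEF-2F and MEF-3F, and 3.46-fold and 2.51-fold lower in PC-2F and PC-3F. Against pOPC the whole list had 13 of 51 genes higher and 14 lower in MEF-2F (18.3% and 25.1% of all genes), 14 and 7 of 56 in MEF-3F (19.9% and 19.5%), 17 and 10 of 58 in PC-2F (19.9% and 21.1%) and 14 and 13 of 56 in PC-3F (18.8% and 21.8%).

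The genes whose pattern over the 7 libraries was most like that of a member were found by the Pearson correlation of log2(CPM + 10) among 3890 or 3891 genes, a description over 7 points. Those nearest Erbb3 included Lrp6, Tmem176a, Matn4 and Pdcd4 (r from 0.98 to 0.99). Those nearest Egfr included Limch1, Pdlim7, Meg3 and Aimp1, all highest in MEF. Those nearest Erbb2 included Tspan17, Islr, Fcgrt and Sdc4, all highest in MEF-2F and at most 3.16 CPM in pOPC. The genes nearest Nrg1 rest on its 29 UMIs and are not named.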

How the data were processed

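The members and all lists here were chosen with earlier results of these data known. Per the labels' protocols, 3′ UMI libraries were made on the ddSEQ system; STAR 2.5.3a, featureCounts 1.6.1, UMI-tools 0.5.3, bcl2fastq 2.19.1.403 and mm10 are listed in the submitters' processing notes, in no stated order. The deposited values (unit: other) are not counts as they stand. Each was read as the place, from 0, of a UMI count in the text-sorted list of occurring counts, an inference that no label states and that every level depends on. PC, MEF-2F and MEF-3F join 2 unexplained barcode blocks with a code list each. Codes were aligned to counts by a smooth frequency model per block. In simulated codes at least 99.8% of entries came back exactly, and the total of a checked gene was off by up to 11.4%, in block 2 of MEF-2F. The simulated codes were made from the decoded counts by the same rule, so they do not check that reading. Under the model the count was certain (probability above 0.99) for 92.2% to 98.6% of UMIs. The 591 non-zero entries of the 4 members were all certain. The plan had assumed counts as deposited.

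Of 1140 barcodes, the 1124 kept had 500 or more UMIs and less than 20% of them mitochondrial. No doublet caller was run; leaving out the deepest 5% of cells was an alternative. Levels carry Poisson intervals, shares Clopper-Pearson intervals and ratios conditional binomial intervals. Cells were clustered with leidenalg 0.10.2. Always named were the 4 members, then pathway genes at 100 CPM or more in 1 library, not all of them shown, and the 5 most similar genes per member with at least 30 UMIs and 100 CPM; some of these are not reported here. Erbb4, which completes the family, Dusp5 and Etv4 lie below that minimum. Cell splits by Sox10, Erbb3 or Erbb4 were added after values were seen.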

Additional observations from a re-analysis of the deposited data

How the results depend on the processing

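No paired analysis was possible because each population is 1 library and the labels carry no replicate numbers. Of 657 recomputed values 607 stayed close to the reported one, 49 moved and 1 reversed. No Erbb3 call changed; 11 of 290 recomputed member ratios changed call, all of Erbb2 or Egfr, and the cause was not tested. With each cell weighted equally Erbb2 was 56.7 CPM in MEF-3F, which was then called above MEF (log2 ratio 1.35) and no longer below MEF-2F (-0.84), and Erbb3 was 542 CPM in PC-2F. In the first block of MEF-3F Erbb2 was 55.3 CPM and Egfr 0.0 CPM, so that the log2 ratio of Egfr was -4.17 to MEF, -0.65 to pOPC (reversed), -2.46 to MEF-2F and 0.49 to PC-3F. Block 1 of PC and block 2 of MEF-2F also had Egfr at 0.0 CPM. Within 1 block Erbb2 was no longer called for MEF-2F against MEF, pOPC or PC-2F (second block), for MEF-3F and PC against pOPC (first block), and for MEF-3F against MEF-2F (either block); fewer cells make up each.

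TMM scaling moved all log2 ratios by -0.29 in MEF-2F and -0.28 in MEF-3F against MEF, by at most -0.06 against PC, and by 0.26 and 0.23 in PC-2F and PC-3F against pOPC. On it the pathway list had 16 genes higher and 10 lower in MEF-2F against MEF, 19 and 7 in MEF-3F against MEF, and 15 and 8 in PC-3F against pOPC. Of its ERK genes 10 stayed higher in MEF-2F, 10 in MEF-3F and 7 in each PC-derived library. With a minimum of 100 CPM fewer genes are tested: 11 were higher in MEF-2F and 11 in MEF-3F against MEF, and 3 and 5 lower in PC-2F and PC-3F against PC. Against pOPC 8 were then lower in MEF-2F, 7 higher and 4 lower in MEF-3F, 7 higher in PC-2F, and 6 higher and 6 lower in PC-3F.

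Shares of cells move with depth. Without thinning Erbb3 was in 81.6% (PC-3F), 76.5% (PC-2F), 48.8% (MEF-2F) and 37.9% (MEF-3F) of cells, and at 1500 UMIs in 35.4% (MEF-3F), 42.7% (PC-2F) and 68.3% (PC-3F). Erbb2 without thinning was in 17.3% (PC-2F), 15.9% (MEF-2F), 14.3% (PC-3F), 13.0% (MEF), 10.3% (PC) and 8.07% (MEF-3F), and at 1500 UMIs in 11.9% (MEF-2F). Egfr was in 3.73% (pOPC) and 38.2% (MEF) without thinning and 1.04% (MEF-3F) at 1500 UMIs, and Nrg1 in 6.72% (pOPC) and 8.40% (MEF) without thinning. Both Erbb2 and Erbb3 were then in 10.2% (PC-3F), 13.4% (PC-2F) and 13.4% (MEF-2F). Of cells with Sox10, 90.8% (PC-3F), 94.0% (PC-2F), 56.0% (MEF-3F) and 100% (MEF-2F) then had Erbb3, and of those without, 54.4% (PC-2F) and 74.4% (PC-3F). Depth limits Nrg1 most, which had at most 14 UMIs in a library.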
